A study of Mus musculus with 6 samples.

Results

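The genes described here are 7 secreted signals that draw in or sustain leukocytes, the chemokines Ccl2, Ccl7, Cxcl1, Cxcl5, Cxcl12 and Cx3cl1 and the growth factor Csf1. They were taken by symbol from the 22375 rows of the deposited table, and all 7 were found with 1 row each. The study asked about integrin beta-1 and fibrosis of the diaphragm under mechanical ventilation with end-expiratory pressure, with RNA-seq of rabbit diaphragm, not analysed here, and of C2C12 cells with and without cyclic stretch. C2C12 is an established line of mouse myoblasts, the precursors of muscle fibers, grown here in medium with fetal bovine serum on elastic plates coated with poly-lysine. The CON group (3 libraries) was not stretched, and the 4H group (3 libraries) was stretched at 15% elongation for 4 h. No genotype or drug differed between the groups. All 6 libraries come from the same cell line, and the labels call them biosamples without saying whether they were separate cultures, so p-values measure the spread between these samples, which may be technical. By the numbering of their descriptions, the libraries with the titles 4H1, 4H3 and 4H4 are called 4H replicates 1, 2 and 3.

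Chemokines are small secreted proteins that bind heparan sulfate on cell surfaces and matrix and guide leukocytes that carry the matching G-protein-coupled receptor. CCL2 and CCL7 recruit monocytes through CCR2, CXCL1 and CXCL5 recruit neutrophils through CXCR2, and CXCL12 acts through CXCR4 and is taken up by the scavenger receptor ACKR3. CX3CL1 is made as a membrane-anchored protein that ADAM10 and ADAM17 release, and it binds CX3CR1 on monocytes and microglia. CSF1 keeps macrophages alive through the receptor CSF1R, which also binds IL34. In injured muscle, such signals from muscle cells and resident macrophages are known to bring in the neutrophils and monocytes that clear debris.

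The start regions of the members that changed are shown first, because Cx3cl1 and Cxcl1 rose and Csf1 fell, and a window was at hand for each. RefSeq windows of 250 bases before to 50 bases after the gene start (GRCm38.p6, the assembly behind mm10, which the submitters' processing notes name) were found for 4 of the 7 genes, Cx3cl1, Cxcl1, Csf1 and Cxcl12. Ccl2, Ccl7 and Cxcl5 had no entry. The capitals mark matches, on either strand, to the NF-κB motif GGGNNNTTCC, the TATA box TATAAA, the GC box GGGCGG, the AP-1 motif TGANTCA and the TEAD motif GGAATG. Cx3cl1 (chr8:94771930-94772229, plus strand), Cxcl1 (chr5:90890995-90891294, plus strand) and Csf1 (chr3:107760420-107760719, minus strand) read, from 5′ to 3′ of the gene:
Cx3cl1: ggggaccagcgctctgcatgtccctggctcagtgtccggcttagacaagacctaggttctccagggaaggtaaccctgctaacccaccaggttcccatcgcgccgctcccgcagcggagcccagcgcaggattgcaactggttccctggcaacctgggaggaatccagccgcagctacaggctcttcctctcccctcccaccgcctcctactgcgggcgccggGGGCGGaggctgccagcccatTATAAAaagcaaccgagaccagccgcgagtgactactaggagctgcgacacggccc
Cxcl1: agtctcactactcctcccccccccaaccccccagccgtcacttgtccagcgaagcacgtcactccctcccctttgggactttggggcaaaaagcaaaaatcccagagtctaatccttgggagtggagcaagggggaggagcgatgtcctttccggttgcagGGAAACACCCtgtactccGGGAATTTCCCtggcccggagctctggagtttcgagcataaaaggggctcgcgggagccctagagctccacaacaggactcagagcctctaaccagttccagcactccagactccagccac
Csf1: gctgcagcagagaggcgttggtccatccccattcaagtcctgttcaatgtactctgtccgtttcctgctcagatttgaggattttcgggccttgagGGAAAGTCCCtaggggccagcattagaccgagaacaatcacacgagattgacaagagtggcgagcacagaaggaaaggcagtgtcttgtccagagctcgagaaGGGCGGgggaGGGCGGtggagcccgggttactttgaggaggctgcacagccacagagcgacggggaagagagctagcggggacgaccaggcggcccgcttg

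The Cxcl1 window held 3 matches to the NF-κB motif, beginning 89, 71 and 70 bases before the gene start, and the last pair overlap on opposite strands as the run GGGAATTTCCC. The Csf1 window held 1 match to this motif, 154 bases before the start, together with 2 GC boxes. The Cx3cl1 window held no match to it and had 1 TATA box, 6 bases before the RefSeq start, and 1 GC box. The GENCODE start of Cx3cl1 lies 171 bases upstream of the RefSeq start, so that 221 of the 300 bases of this window, both matches included, are inside the GENCODE gene, whereas for Cxcl1 the starts differ by 4 bases and for Csf1 and Cxcl12 by 0. In the Cxcl12 window, 5 GC boxes and no other motif of the set were found. AP-1 and TEAD motifs were absent from all 4 windows. Of all 32851 RefSeq windows of this length, 5.56% held the NF-κB motif, 13.6% the TATA box, 35.7% the GC box, 7.81% the AP-1 motif and 14.7% the TEAD motif. A match is a match of letters and does not show that a factor binds.

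RNA was measured as FPKM, the fragments of a gene per kilobase of transcript scaled by the library's mapped fragments, so that levels of different genes can be set side by side. FPKM summed to 395790 to 397260 per library in the CON group and to 385146 to 387516 in the 4H group, and the table does not hold fragment numbers. Among genes below 0.1 FPKM, where values step by whole fragments, the commonest ratio of a pair of libraries, sought within 0.1 of equal on the natural log scale, was at most 1.66% from equal depth. Pearson's r between libraries, computed over genes (no independent replicates), was 0.992 to 0.993 inside a group and 0.967 to 0.970 from one group to the other. For the test, limma was fitted to log2(FPKM + 0.5) of 11593 genes, those whose mean reached 0.5 FPKM, and p was adjusted over all of them by Benjamini-Hochberg. A log2 fold change on this scale understates the change of low genes. A gene passed the test at an adjusted p of at most 0.05, and was differentially expressed, by the thresholds of the study's methods, if its log2 fold change was also at least 1 in size.

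All 7 members passed the filter on low values. Of these, 3 were higher in the 4H group, Cx3cl1, Cxcl1 and Ccl2, while Csf1 was lower and Ccl7, Cxcl5 and Cxcl12 did not pass the test. Among all genes tested, 22.6% were higher and 24.1% lower at the same adjusted p. The fold threshold was met by Cx3cl1 alone, against 2.61% of all genes in this direction and 1.28% in the other. The groups did not overlap in 5 of the 7 members, against 56.7% of all genes tested. The median log2 fold change of the members was 0.29 and that of all genes -0.01.

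**Figure D1:**
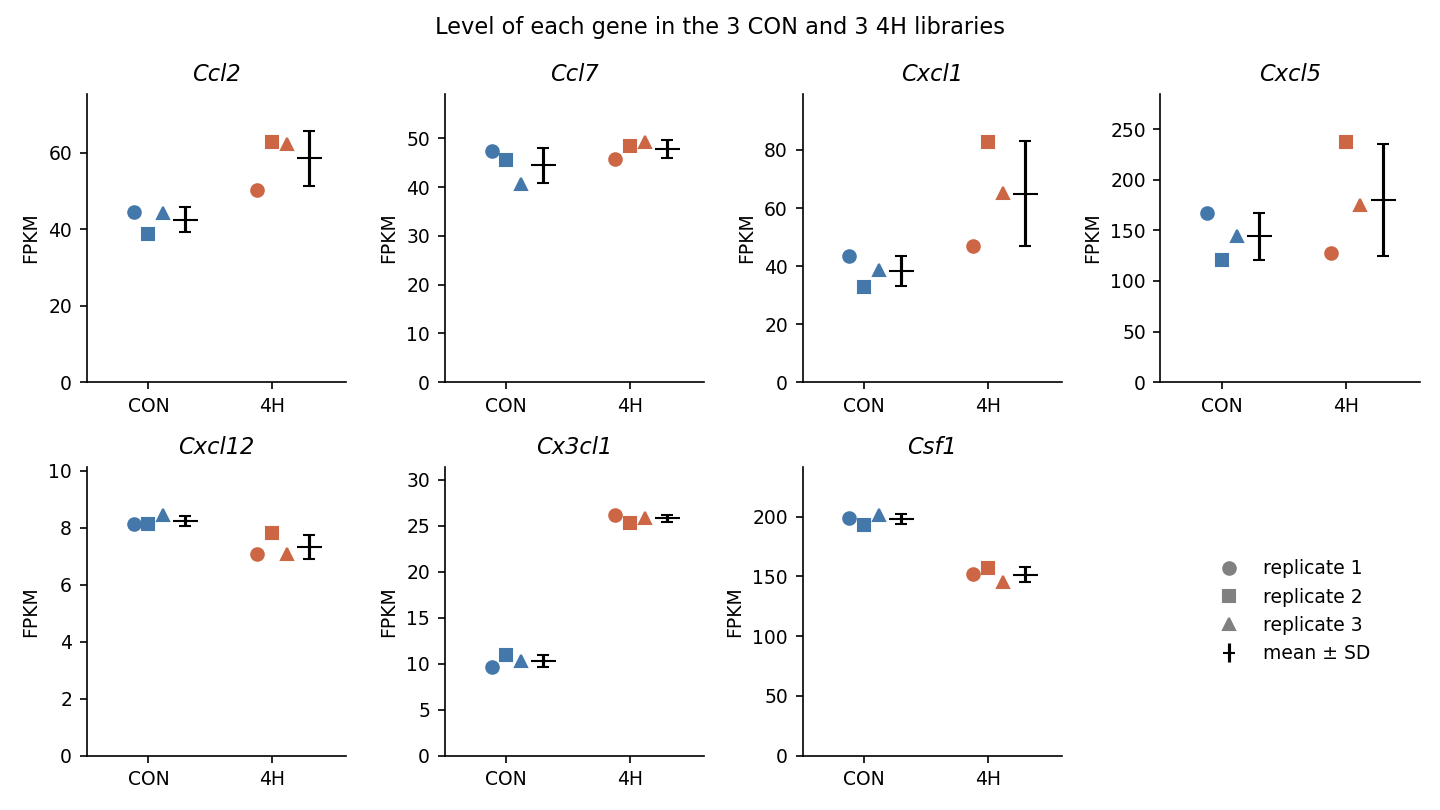
FPKM of the 7 genes in each library (vertical axes from 0, one scale per gene). Blue points are the 3 CON libraries and orange points the 3 4H libraries, with the replicate as the symbol, and bars beside them give mean ± SD. Cx3cl1 and Csf1 separate the groups with little spread, whereas Cxcl1 and Cxcl5 spread most in the 4H group, from 46.8 to 82.9 and from 128 to 238 FPKM.

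Cx3cl1 (ENSMUSG00000031778, chr8:94772009-94782427, GRCm38), the gene of the membrane-anchored chemokine fractalkine, had the largest change of the 7. It was at 9.61, 10.9 and 10.2 FPKM in the CON libraries, against 26.2, 25.4 and 25.9 FPKM in the 4H libraries. The groups did not overlap, and the lowest 4H library was far above the highest CON library. The mean rose from 10.3 ± 0.643 to 25.8 ± 0.408 FPKM (SD, n = 3 each), a ratio of 2.52 and a log2 fold change of 1.29 (standard error 0.05, 95% interval 1.17 to 1.42, adjusted p = 8.91e-07). Of the proteases that release the protein, Adam10 was at 32.3 ± 1.63 and 30.3 ± 2.47 FPKM (adjusted p = 0.256), and Adam17 fell from 26.3 ± 0.250 to 22.6 ± 0.215 FPKM (a log2 change of -0.21 with an adjusted p of 0.00175). Its receptor gene Cx3cr1 was at or below 0.0410 FPKM in every library.

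Ccl2 and Ccl7, ligands of CCR2, lie 8.26 kb apart on chromosome 11 (Ccl2 at chr11:82035571-82037453, Ccl7 at chr11:82045712-82047525, GRCm38). Ccl2 (ENSMUSG00000035385) was at 44.4, 38.7 and 44.2 FPKM in the CON libraries, against 50.3, 62.9 and 62.4 FPKM in the 4H libraries. All 4H libraries were above all CON libraries, with 4H replicate 1 nearest to them. The mean rose from 42.4 ± 3.26 to 58.5 ± 7.15 FPKM, which is 0.45 on the log2 scale (standard error 0.09; adjusted p = 0.00428). Ccl7 (ENSMUSG00000035373) was at 47.4, 45.5 and 40.5 FPKM in the CON libraries, against 45.8, 48.5 and 49.3 FPKM in the 4H libraries. These values overlap, and the log2 fold change of Ccl7 was 0.11 (95% interval -0.03 to 0.25, adjusted p = 0.178). Within each library, the log2 ratio of Ccl2 to Ccl7 was -0.07 ± 0.18 in the CON group and 0.28 ± 0.13 in the 4H group. The difference of 0.35 had an exact permutation p of 0.1, two-sided, the smallest that 3 libraries against 3 allow, and the highest CON library (0.12) came close to the lowest 4H library (0.13).

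Cxcl1 and Cxcl5, ligands of CXCR2, lie in the CXC cluster of chromosome 5, 130 kb apart (Cxcl5 at chr5:90759360-90761624, Cxcl1 at chr5:90891241-90893115, GRCm38). Cxcl1 (ENSMUSG00000029380) was at 43.3, 32.9 and 38.6 FPKM in the CON libraries, against 46.8, 82.9 and 65.1 FPKM in the 4H libraries. The groups did not overlap, but 4H replicate 1 was just above the highest CON library. The mean rose from 38.3 ± 5.24 to 64.9 ± 18.1 FPKM, a log2 fold change of 0.73 (standard error 0.19, 95% interval 0.29 to 1.16, adjusted p = 0.0139), and without CON replicate 2 the log2 fold change of Cxcl1 was 0.62 with an adjusted p of 0.04997, just inside the threshold. Cxcl5 (ENSMUSG00000029371) was the more abundant of the pair, at 167, 121 and 144 FPKM in the CON libraries, against 128, 238 and 175 FPKM in the 4H libraries. Its groups overlapped, since 4H replicate 1 was below 2 of the 3 CON libraries. The log2 fold change of Cxcl5 was 0.29 (95% interval -0.19 to 0.76, adjusted p = 0.292), but it was 0.51 without 4H replicate 1 (adjusted p = 0.0340) and 0.06 without 4H replicate 2 (adjusted p = 0.777). The call on Cxcl5 thus depends on which 4H library is left out.

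Although both CXC genes spread widely, their ratio within a library was stable. The log2 ratio of Cxcl1 to Cxcl5 was -1.94, -1.86 and -1.89 in the CON libraries and -1.44, -1.51 and -1.42 in the 4H libraries. All 4H libraries lay above all CON libraries, by a mean of 0.44 (SD 0.04 in the CON and 0.05 in the 4H group), with an exact permutation p of 0.1, two-sided. Adjusted over the 4 gene pairs compared, p was 0.1 for each.

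**Figure D2:**
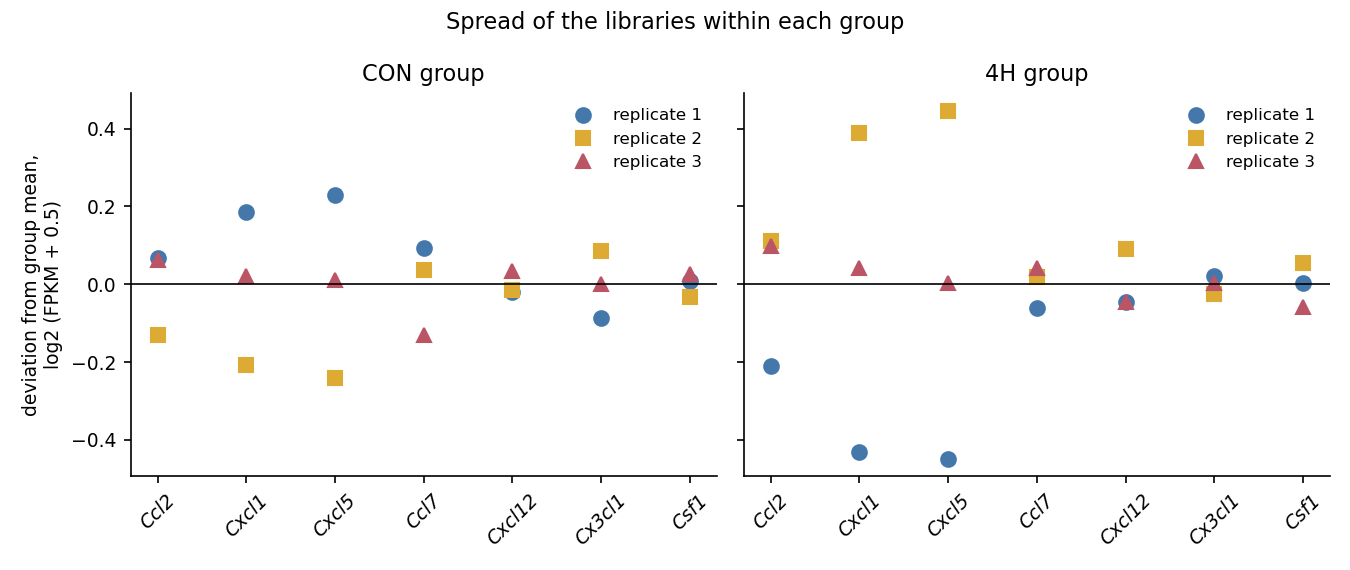
Deviation of each library from its group mean, on the log2(FPKM + 0.5) scale, for the CON group (left) and the 4H group (right), with replicates as colors and symbols. In the CON group replicate 2 is lowest in Ccl2, Cxcl1 and Cxcl5, and in the 4H group replicate 1 is lowest in the same genes, by 0.21, 0.43 and 0.45, while Csf1 and Cx3cl1 stay within 0.09 in both groups.

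Ccl2, Cxcl1 and Cxcl5 deviated from their group means in the same libraries. In the CON group, replicate 2 was the lowest and replicate 1 the highest of the 3 libraries in each of these genes, and in the 4H group replicate 1 was the lowest and replicate 2 the highest. The coefficient of variation in the 4H group was 27.8% for Cxcl1 and 30.7% for Cxcl5, against 12.2% for Ccl2, 5.90% for Cxcl12, 3.91% for Csf1, 3.82% for Ccl7 and 1.58% for Cx3cl1. The source of this shared spread was not tested.

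Cxcl12 (ENSMUSG00000061353, chr6:117168535-117181367, GRCm38), a chemokine that stromal cells make constantly and that lacks the ELR motif of CXCL1 and CXCL5, was the lowest of the 7. It was at 8.12, 8.15 and 8.45 FPKM in the CON libraries, against 7.08, 7.82 and 7.07 FPKM in the 4H libraries. All 4H libraries were below all CON libraries, yet the log2 fold change of Cxcl12, -0.16 (95% interval -0.31 to -0.01), had an adjusted p of 0.0699. Its adjusted p was 0.0414 without 4H replicate 2, and ranged up to 0.174 with other libraries left out. Its receptors moved more. Ackr3, the scavenger, was at 3.20, 3.52 and 3.82 FPKM in the CON libraries, against 8.82, 10.0 and 7.94 FPKM in the 4H libraries (log2 fold change 1.23, standard error 0.10, adjusted p = 3.01e-05). Cxcr4, the signaling receptor, was at 0.844, 1.07 and 1.10 FPKM in the CON libraries, against 2.79, 2.06 and 3.398 FPKM in the 4H libraries (log2 fold change 1.09, standard error 0.16, adjusted p = 9.04e-04). Both receptor genes rose without overlap between the groups, though Cxcr4 fell short of the fold threshold without 4H replicate 3 (0.95), with a pseudocount of 1 (0.89) and under quantile normalization (0.99). The log2 ratio of Cxcl12 to Ackr3 fell from 1.12 ± 0.09 in the CON group to -0.26 ± 0.10 in the 4H group (difference -1.39, exact permutation p = 0.1, two-sided), so that Cxcl12 was above Ackr3 in every CON library and below it in every 4H library.

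Csf1 (ENSMUSG00000014599, chr3:107741048-107760469, minus strand, GRCm38), the macrophage growth factor, was the only member that fell by the test. It was at 199, 193 and 201 FPKM in the CON libraries, against 152, 157 and 146 FPKM in the 4H libraries. The groups were well apart, and the mean went from 197.9 ± 4.16 to 151.6 ± 5.93 FPKM, a ratio of 0.766 and a log2 fold change of -0.38 (standard error 0.04, 95% interval -0.46 to -0.30, adjusted p = 5.88e-05). Il34, the other ligand of CSF1R, moved the opposite way, from 3.83, 3.63 and 4.48 FPKM in the CON libraries to 10.0, 9.94 and 9.05 FPKM in the 4H libraries (log2 fold change 1.19, standard error 0.09, adjusted p = 1.70e-05). Il34 shares exon positions with 2 genes of the other strand, whose fragments could enter its FPKM if strand was ignored in counting. Because Csf1 was far more abundant, the summed FPKM of both ligands was lower in the 4H group, at 161.3 ± 6.40 against 201.8 ± 4.54 FPKM (exact permutation p = 0.1, two-sided). The log2 ratio of Csf1 to Il34 fell from 5.47 ± 0.11 to 3.90 ± 0.04 (difference -1.57, exact permutation p = 0.1).

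**Figure D3:**
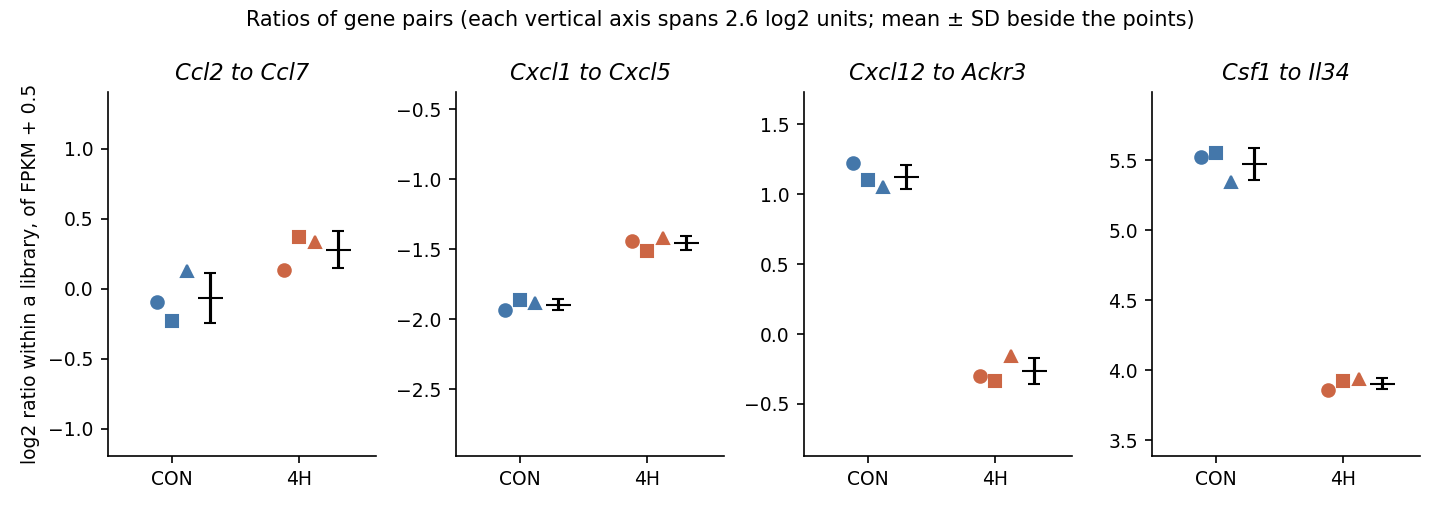
Log2 ratio of 2 genes within a library (vertical axis, log2 of FPKM + 0.5, 2.6 units in each panel) for 4 pairs, with CON libraries in blue, 4H libraries in orange, replicates 1, 2 and 3 as circle, square and triangle, and mean ± SD beside them. The groups do not overlap in any pair, and the gap is widest for Csf1 to Il34 (difference -1.57) and Cxcl12 to Ackr3 (difference -1.39). For Ccl2 to Ccl7 the highest CON library (0.12) and the lowest 4H library (0.13) nearly touch. How often pairs of other genes do not overlap was not computed.

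The order of the members by level changed between the groups. In the CON group it was Csf1, Cxcl5, Ccl7, Ccl2, Cxcl1, Cx3cl1 and Cxcl12, and the ranges of the libraries overlapped for the neighbors Ccl7 and Ccl2 and for Ccl2 and Cxcl1. In the 4H group it was Cxcl5, Csf1, Cxcl1, Ccl2, Ccl7, Cx3cl1 and Cxcl12, and the ranges overlapped for Cxcl5 and Csf1 and for Cxcl1 and Ccl2. Csf1 took 40.9% ± 2.34 of the summed FPKM of the 7 genes in the CON group and 28.7% ± 4.18 in the 4H group (SD, n = 3 each), and Cx3cl1 took 2.12% ± 0.285 and 4.90% ± 0.834. By mean FPKM over the 6 libraries, Csf1 stood above 97.3% and Cxcl5 above 97.1% of the genes tested, whereas Cx3cl1 stood above 62.8% and Cxcl12 above 36.6%.

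Of 36 other chemokines and colony-stimulating factors in the table, 6 had a mean of at least 0.5 FPKM, and 11 were listed at 0 in all 6 libraries. Il34 and Ppbp were higher and Cxcl10 and Ccl5 lower by the test, and Ccl8 and Ccl25 did not pass it, where 22.6% of all genes tested were higher and 24.1% lower. Cxcl10, an interferon-induced chemokine, was at 11.5, 14.7 and 10.9 FPKM in the CON libraries, against 8.74, 6.82 and 7.12 FPKM in the 4H libraries (log2 fold change -0.67, adjusted p = 0.00304), without overlap. It shares exon positions with Art3 on the other strand. Ccl5 went from 11.2 ± 0.927 to 8.87 ± 1.39 FPKM (a log2 change of -0.33 with an adjusted p of 0.0414) and Ppbp, a platelet chemokine next to Cxcl5 in the cluster, from 0.987 ± 0.140 to 1.99 ± 0.768 FPKM (a log2 change of 0.69 with an adjusted p of 0.0408). Without 4H replicate 3 the log2 change of Ccl5 was -0.21 (adjusted p of 0.0858). Each of the calls on Ccl5 and Ppbp was lost in 9 of 15 alternatives, with adjusted p up to 0.132 for Ccl5 and 0.127 for Ppbp. Ccl8 was at 1.599 ± 0.592 and 2.42 ± 0.807 FPKM (adjusted p = 0.142), and Ccl25 at 1.73 ± 0.221 and 1.96 ± 0.396 FPKM (adjusted p = 0.477).

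Of 27 receptor genes for chemokines and colony-stimulating factors, 7 passed the filter on low values. Of these, Ackr3 and Cxcr4 were higher by both thresholds, as were 2.61% of all genes tested. Cxcr4 missed the fold threshold in some alternatives, as given above. Ccr1, Csf1r, Cxcr6 and Ccr10 had a mean under 0.5 FPKM in the CON group and passed the filter only through the 4H libraries, so their values are given as a description with no test. Leaving out any 4H library, or a filter at 1 FPKM, removed Ccr1 and Csf1r from the genes tested, and with pseudocounts of 0.1 to 1 their fitted log2 fold changes ran from 3.26 to 0.97 for Ccr1 and from 3.403 to 1.03 for Csf1r. Csf1r was listed at 0 in CON replicates 1 and 2 and at 0.0272 FPKM in replicate 3, and was at 1.48, 0.966 and 0.792 FPKM in the 4H libraries. It shares exon positions with 1 gene of the other strand, Hmgxb3. Ccr1, a receptor of CCL5 and CCL7, was at 0.0165, 0.0206 and 0 FPKM in the CON libraries, against 0.900, 1.31 and 0.777 FPKM in the 4H libraries. Cxcr6 was at 0.323 ± 0.132 and 0.715 ± 0.366 FPKM and Ccr10 at 0.484 ± 0.111 and 0.589 ± 0.280 FPKM in the CON and the 4H group. Csf2rb, which shares 7.15% of its 75-base stretches with Csf2rb2, was at 0.765 ± 0.103 and 0.585 ± 0.163 FPKM (adjusted p = 0.265). Cxcr1 and Cxcr2 were listed at 0 in all 6 libraries and Ccr2 in all but CON replicate 1, where it was at 0.0167 FPKM.

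**Figure D4:**
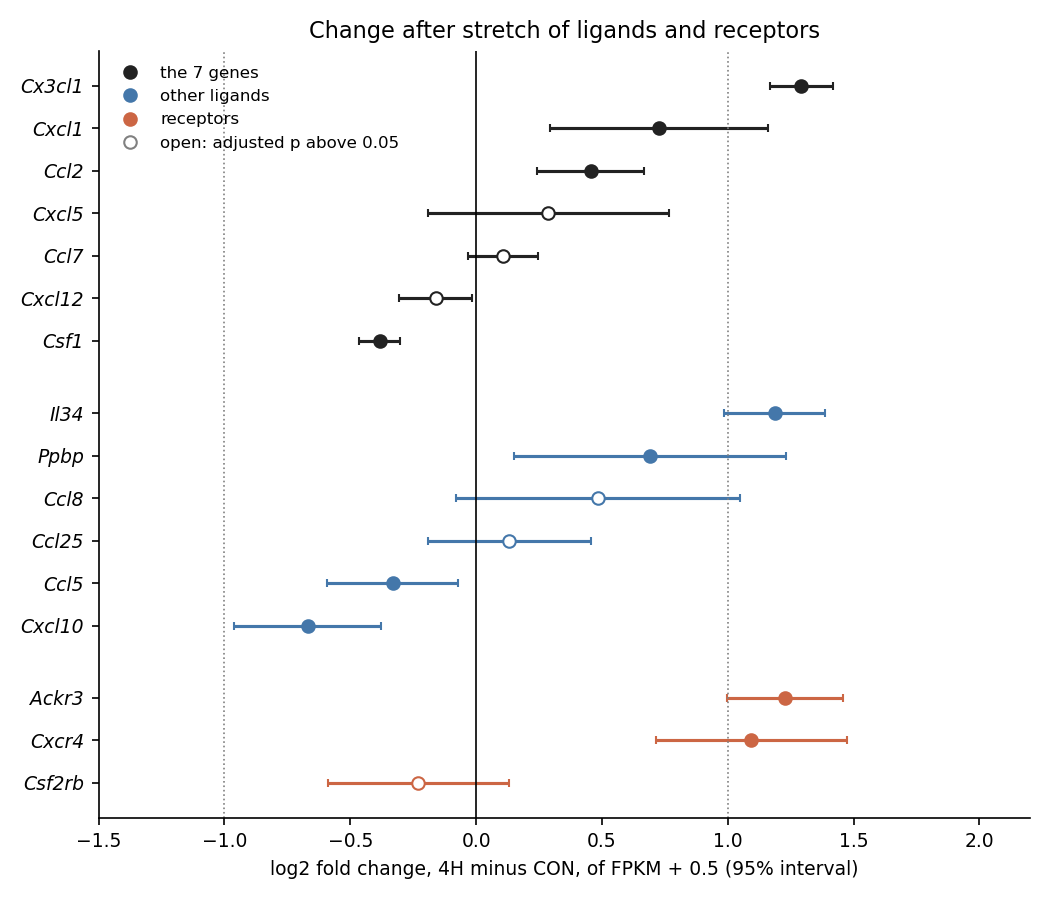
Log2 fold change, 4H minus CON, of the 7 genes (black), 6 other ligands (blue) and 3 receptors (orange) whose mean reached 0.5 FPKM in both groups, with 95% intervals from limma on log2(FPKM + 0.5). Filled points have an adjusted p of at most 0.05, and dotted lines mark the fold threshold of 1, which Cx3cl1, Il34, Ackr3 and Cxcr4 pass and no gene shown passes downward, and which Cxcr4 misses with a pseudocount of 1 (0.89). Of all genes tested, 2.61% pass it upward and 1.28% downward with an adjusted p of at most 0.05.

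Markers of other cell types were read beside these receptors. Of 9 macrophage and leukocyte markers, Ptprc, Adgre1 and C1qa were listed at 0 in all 6 libraries, 4 more were under the filter with at most 0.222 FPKM, and of the others Cd68 rose and Csf1r had the values above. Cd68, a lysosomal protein that other cells express too, was at 8.51, 6.73 and 7.47 FPKM in the CON libraries, against 15.0, 17.6 and 16.6 FPKM in the 4H libraries (log2 fold change 1.07, adjusted p = 4.11e-05). The summed FPKM of the 9 markers was 6.82 to 8.55 in the CON group and 16.7 to 18.7 in the 4H group, most of it Cd68. Without Cd68 the other 8 summed to 0.0446 to 0.117 and 1.08 to 1.68 FPKM. In the 4H libraries most of this smaller sum was Csf1r (1.48, 0.966 and 0.792 FPKM), which passed the filter only through these libraries. The part of these markers in the results was not tested. The 4 endothelial and 4 epithelial markers were all under the filter, with at most 0.166 and 0.358 FPKM. Of 7 myoblast markers, 5 rose, Myf5 fell, and Myog was under the filter, beside 22.6% higher and 24.1% lower among all genes tested. The transcription factor genes Myod1 and Msc passed both thresholds upward, as did 2.61% of all genes tested. Msc was at 0.622 ± 0.184 and 2.33 ± 0.357 FPKM (a log2 change of 1.34 with an adjusted p of 2.79e-04). Myod1 had the larger change on the log2(FPKM + 0.5) scale but the smaller ratio of means, 3.55 against 3.74 for Msc (5.13 ± 0.573 to 18.2 ± 0.738 FPKM, a log2 change of 1.74 with an adjusted p of 1.56e-06). In bulk samples, a change in the number of cells that express a gene and a change in its RNA per cell cannot be told apart.

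Among 19 cytokines, receptors and adaptors that are known to induce chemokines, 14 were tested, 2 rose, 5 fell and 7 did not pass the test, beside 22.6% higher and 24.1% lower among all genes tested. Il33, an alarmin of the IL1 family, was at 7.39, 6.42 and 7.14 FPKM in the CON libraries, against 43.7, 43.2 and 41.9 FPKM in the 4H libraries, a ratio of 6.15 and a log2 fold change of 2.54 (adjusted p = 6.07e-08). Its receptor gene Il1rl1 was under the filter, at 0.0697 to 0.146 FPKM in the CON and 0.400 to 0.585 FPKM in the 4H libraries, and the coreceptor gene Il1rap rose (log2 fold change 0.70, adjusted p = 1.49e-04). The 5 that fell were Tnfrsf1a, Tnfrsf1b, Tlr2, Tlr4 and Myd88, with log2 fold changes of -0.22 to -0.40. Il1a, Il1b, Tnf and Il17a, the classical inducers, were all under the filter. Of 7 regulators of chemokine mRNA stability, 4 rose, among them Zc3h12a, a nuclease that cuts such mRNAs (5.39 ± 0.906 to 8.46 ± 0.549 FPKM, a log2 change of 0.62 with an adjusted p of 0.00227), and Zfp36l1 (log2 fold change 0.83, adjusted p = 8.62e-05), and 2 fell, Khsrp and Hnrnpd, beside the same 22.6% and 24.1% of all genes.

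For each member, the gene of at least 5 FPKM with the most similar values over the 6 libraries was found by Pearson correlation on the log2 scale, among 8583 genes. Such a correlation, over only 6 libraries in 2 groups, mixes the difference between the groups with the spread inside them. As the highest of 8583 values it is also large by selection, so its size is no evidence of a link between the genes. Cx3cl1 was most like Npnt, the gene of the integrin ligand nephronectin (r = 0.9999), which was at 17.7 ± 1.43 and 63.6 ± 1.14 FPKM. Csf1 was most like Apmap (r = 0.9996), at 22.2 ± 0.825 and 14.4 ± 0.799 FPKM. Cxcl5 was most like Acat2 (r = 0.997), Cxcl12 like Ppm1a (r = 0.994), Ccl2 like Ccne1 (r = 0.991), Ccl7 like Pkn3 (r = 0.988) and Cxcl1 like Celf1 (r = 0.982).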

How the data were processed

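RNA-seq of 6 C2C12 libraries was analysed, 3 of the CON and 3 of the 4H group, grouped by the labels. The authors deposited 1 table of FPKM values, not counts. Poly(A) RNA went into strand-specific, paired-end libraries. The genome build is mm10 per the submitters' processing notes. The strand setting, annotation, counting tool and aligner were not given in the sources used here. DESeq2, which the authors used, needs counts and was not run.

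The members and gene lists were chosen with earlier results of these data known. Tests used limma 3.58.1 in R 4.3.3 (lmFit, eBayes with a trend) on log2(FPKM + 0.5), two-sided, at a mean of at least 0.5 FPKM, with Benjamini-Hochberg adjustment. Standard deviations and exact permutation tests used Python 3.11.15, pandas 2.3.3 and SciPy 1.17.1, and plots matplotlib 3.10.9. On simulated data for this comparison, 200 of 11593 genes were changed by 1.5 on the log2 scale. At both thresholds, 99.5% of them were recovered with 0 false calls. The simulation had far fewer changed genes than these data and did not cover smaller changes called by adjusted p alone. It thus says nothing about the calls on Ccl2, Cxcl1 and Csf1. FPKM holds no fragment numbers, so precision rests on 3 libraries a group. No batch is named in the labels, and no pair of libraries was identical. Positions and exon overlap came from GENCODE M21 (GRCm38). No member shares exon positions with another gene, and 75-base stretches found in other genes' transcripts made up 0.571% of Cxcl5 and none of the other members. Named genes are the 7 members, tested ligands and receptors, listed genes past both thresholds, and the most similar gene of each member. Adam10, Adam17, Cx3cr1, Cxcr1, Cxcr2, Ccr2, Il1rl1, Il1rap, Zc3h12a and Zfp36l1, with other listed genes named in counts, fall outside it and were picked with their values in view. The closing section gives the effect of 15 alternatives: 2 other pseudocounts, 2 other filters, a replicate block, no trend, 3 other scalings and each library left out.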

Additional observations from a re-analysis of the deposited data

How the results depend on the processing

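Over the 15 alternatives, 4 or 5 of the 7 members passed the test and Cx3cl1 alone passed the fold threshold in each. Cx3cl1, Cxcl1, Ccl2 and Csf1 kept their call and direction in all 15, with log2 fold changes of 1.25 to 1.35, 0.53 to 0.94, 0.39 to 0.56 and -0.41 to -0.33. Cxcl12 passed without a trend (-0.16, adjusted p = 0.0493), and left-out libraries moved it from -0.21 to -0.14. Left-out libraries moved Cxcl5 from 0.064 to 0.51, and Ccl7 stayed at 0.04 to 0.15 and never passed. Of the receptors given as a description, Ccr10 turned from 0.12 to -0.043 under quantile normalization. The number of differentially expressed genes, 450, was 703 with libraries rescaled to TPM, where 12457 genes were tested, and 347 with a pseudocount of 1. Between same-numbered replicates, deviations from the group means had correlations of 0.02, -0.09 and -0.13 over genes. By title, C3 and 4H3 also share a number. These are CON replicate 3 and 4H replicate 2, whose correlation of 0.18 was the highest of any pair. With 3 libraries a group, such values cannot decide whether the samples were paired. With a replicate block, the members that passed were again 4 and differentially expressed genes were 452, and the calls on Ccl5 and Ppbp were lost. Depth is not in the table, so counting error of low genes such as Csf1r and Ccr1 is unknown.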
